A study of Homo sapiens with 4 samples.

Results

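The promoters of long noncoding RNA (lncRNA) genes were examined in nucleosome maps of BE(2)C cells, an established human neuroblastoma cell line with MYCN amplification. A promoter was a member when the gene was of type lncRNA in GENCODE v44lift37, lay on an autosome and started more than 5 kb from the transcription start site (TSS) of every protein-coding gene. Of 18229 autosomal lncRNA genes, 14026 met this rule and 4203 started closer to a coding gene. The member nearest to the limit started 5004 bp away and the nearest gene left out 4998 bp away, and the median distance of the members was 64755 bp. Reads within 1 kb of the TSS were present in all 4 libraries for 14019 members, and 7 members were left out of the shares below for lack of them. The 19229 autosomal protein-coding promoters (19221 after the same filter) served as the comparison.

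Cells of the control group had received a non-targeting siRNA and cells of the MYCN knockdown group an siRNA against MYCN, the gene of the amplified MYC family transcription factor, with 2 replicate libraries each. The labels give 80 nM siRNA for all 4 samples, and the study's methods state a lower final concentration. Chromatin was crosslinked and cut with micrococcal nuclease (MNase), which digests the DNA between nucleosomes, and the protected fragments were sequenced (MNase-seq). The libraries hold nucleosomes and no transcripts, so neither the knockdown nor the activity of any lncRNA gene could be checked in them.

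Nucleosomes are units of DNA wrapped around a histone core, and the middle of the wrapped stretch is the dyad. Active promoters typically carry a nucleosome-free region (NFR) just upstream of the TSS, followed by a well-placed first nucleosome (+1) in the gene. Promoters rich in the dinucleotide CpG (CpG islands) are known for wide NFRs, and many lncRNA genes are transcribed at low levels or in few cell types from promoters that lack such islands. MYC family proteins bind DNA at E-boxes, of which CACGTG is the canonical form.

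The sequences of 5 member promoters show the span of base composition behind the results below. Each is read 5′ to 3′ on the gene's strand from the GRCh37 genome (the hg19 build of the files) and covers 250 bases before the TSS and 50 from it on. In the first 3, capitals mark CpG dinucleotides. DANCR (chr4:53578242-53578541, plus strand), an abundant lncRNA, held 22 CpG and was free of nucleosomes in all 4 libraries. LINC00839 (chr10:42970678-42970977, plus strand), a lncRNA described in neuroblastoma, held 10 CpG and was free in all 4 libraries as well. MIR205HG (chr1:209601912-209602211, plus strand), the host transcript of a microRNA, held 1 CpG and carried a nucleosome in all 4 libraries.
DANCR: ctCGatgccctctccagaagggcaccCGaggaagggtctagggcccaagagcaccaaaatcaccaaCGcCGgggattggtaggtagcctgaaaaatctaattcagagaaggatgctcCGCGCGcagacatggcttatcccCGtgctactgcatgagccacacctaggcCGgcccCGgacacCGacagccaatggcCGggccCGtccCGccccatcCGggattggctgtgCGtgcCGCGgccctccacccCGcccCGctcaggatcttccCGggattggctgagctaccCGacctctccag
LINC00839: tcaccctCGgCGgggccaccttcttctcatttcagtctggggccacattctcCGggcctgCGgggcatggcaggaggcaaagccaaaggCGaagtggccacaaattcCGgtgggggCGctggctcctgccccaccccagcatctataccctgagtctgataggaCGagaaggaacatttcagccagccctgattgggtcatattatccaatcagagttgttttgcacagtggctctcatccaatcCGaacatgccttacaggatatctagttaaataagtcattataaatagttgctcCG
MIR205HG: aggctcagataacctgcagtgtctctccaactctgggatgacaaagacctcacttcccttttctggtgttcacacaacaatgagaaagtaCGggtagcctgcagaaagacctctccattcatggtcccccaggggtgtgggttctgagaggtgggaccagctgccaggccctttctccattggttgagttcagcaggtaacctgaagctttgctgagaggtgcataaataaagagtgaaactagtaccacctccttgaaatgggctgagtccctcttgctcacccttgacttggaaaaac

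In the next pair, capitals mark CACGTG, which reads the same on both strands. Both promoters belong to the 4 members with CACGTG that were free in all 4 libraries and had the widest gaps over the TSS. SNHG29 (chr17:16341831-16342130, plus strand), a host of small nucleolar RNAs, held CACGTG with its first base at -99 and again at -85 relative to the TSS. MRPL45P2 (chr17:45569810-45570109, minus strand), a transcribed pseudogene, held it at -115.
SNHG29: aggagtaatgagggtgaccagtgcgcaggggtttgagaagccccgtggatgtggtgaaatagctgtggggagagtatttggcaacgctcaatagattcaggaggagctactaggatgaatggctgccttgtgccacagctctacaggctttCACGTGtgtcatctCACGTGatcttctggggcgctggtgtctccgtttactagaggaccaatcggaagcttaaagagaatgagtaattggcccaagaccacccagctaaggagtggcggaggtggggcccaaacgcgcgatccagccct
MRPL45P2: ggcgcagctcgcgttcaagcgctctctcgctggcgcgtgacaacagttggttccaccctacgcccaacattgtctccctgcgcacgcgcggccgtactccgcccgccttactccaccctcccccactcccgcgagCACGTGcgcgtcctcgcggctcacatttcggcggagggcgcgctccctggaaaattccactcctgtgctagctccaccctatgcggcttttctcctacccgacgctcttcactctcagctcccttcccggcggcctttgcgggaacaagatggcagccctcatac

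The called nucleosomes held 147726171 and 242544884 reads in the control libraries and 147370973 and 239257113 in the MYCN knockdown libraries, so that the second replicate of each group was the deeper one. The median autosomal nucleosome held 13 reads in both replicate 1 libraries against 19 (control) and 18 (MYCN knockdown) in replicate 2. The authors kept no nucleosome with fewer than 6 reads, so a stretch without a nucleosome can be free of nucleosomes or too thinly covered. Members had a median of 115, 184, 114 and 180 reads within 1 kb of the TSS (control replicates 1 and 2, then MYCN knockdown replicates 1 and 2, the order used throughout). Protein-coding promoters had 109, 173, 106 and 171.

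The members were mostly CpG-poor. A promoter was called CpG-rich when the 500 bp on each side of its TSS had a GC content of at least 50% and an observed over expected CpG ratio of at least 0.6. By this measure 1318 members were CpG-rich, a share of 9.40%, against 58.2% of protein-coding promoters. The median member had a GC content of 45.7% and 4 CpG in its 300 promoter bases, whereas the median protein-coding promoter had 59.2% and 18. CACGTG was present in 4.88% of members, in 8.20% of protein-coding promoters and in 6.84% of all 37458 promoters of autosomal lncRNA and coding genes. Within the CpG-rich members the share with CACGTG was 8.35%, and within the CpG-poor ones 4.52%. The letters TATAAA, searched on the gene's strand, were present in 10.6% of members and 7.68% of protein-coding promoters. In each CpG class the order was the reverse, with the lower share in members. The shares were 11.497% of CpG-poor members against 13.476% of CpG-poor coding promoters. In the CpG-rich class they were 2.049% against 3.505%. These differences were not tested.

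A promoter counted as free when no called nucleosome lay at least 80% inside a window that began 200 bp before the TSS and ended 50 bp past it, the stretch the study treats as the canonical NFR. A free window can therefore still hold part of a nucleosome. The share of free members was 36.4% and 31.6% in the control libraries and 36.7% and 31.4% in the MYCN knockdown libraries. The higher value stood in replicate 1, the shallower library, in both groups, and the groups overlapped. Mean shares were 34.0% ± 3.44 (SD, n = 2) in control and 34.0% ± 3.74 (SD, n = 2) upon MYCN knockdown. The difference of 0.0321 percentage points was smaller than the spread between replicates (p = 1, exact permutation test, two-sided, of which the smallest possible p is 0.333). With 2 libraries a group no comparison of groups by this test can pass 0.05.

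Free windows were less frequent at lncRNA promoters than at protein-coding promoters in each library. The coding shares were 53.1%, 47.8%, 54.8% and 47.6%. Members lay 16.8 ± 0.907 percentage points lower (mean ± SD of 4 libraries), with the same direction in 4 of 4 libraries and p = 0.125 in an exact sign-flip test over libraries, two-sided, which is the smallest p that 4 libraries allow. Sites 10 kb upstream of the members, measured with the same window, were free in 37.2%, 30.4%, 36.0% and 29.4% of cases. The members exceeded these sites by 0.753 ± 1.16 percentage points, in 3 of 4 libraries (p = 0.375, exact sign-flip test). A difference of the typical member from the sequence around it was therefore not resolved by this measure. In the plot of free shares the lncRNA promoters and their upstream sites stand at the same height, below the coding promoters.

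**Figure D1:**
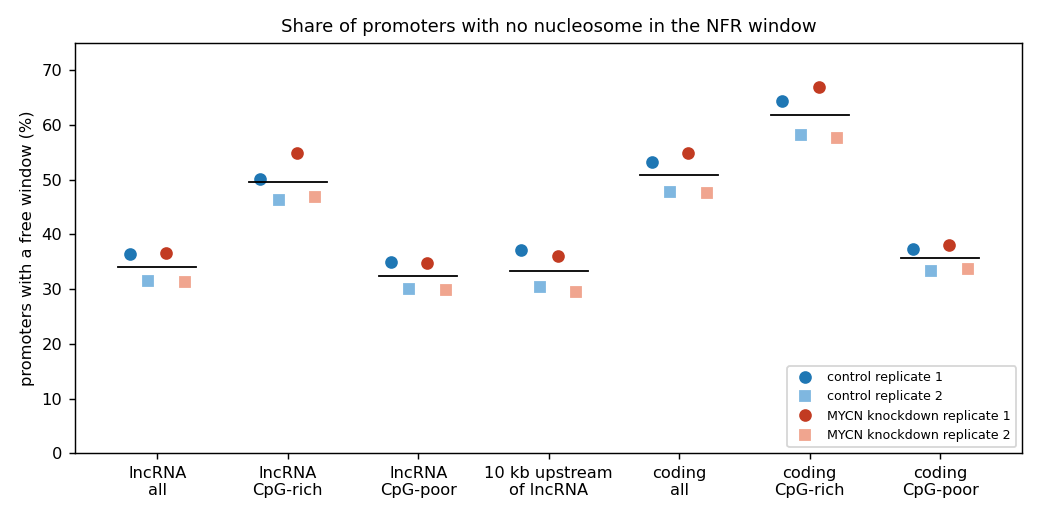
Share of promoters (%, vertical axis) with no nucleosome at least 80% inside the NFR window, for lncRNA promoters, sites 10 kb upstream of them and protein-coding promoters, all and by CpG class. Points are the 4 libraries and bars their mean. CpG-poor lncRNA promoters sit between 29.8% and 35.0%, close to the upstream sites, and CpG-rich ones between 46.2% and 54.9%.

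The small CpG-rich class differed from the rest of the members. CpG-rich members were free in 50.2%, 46.2%, 54.9% and 46.9% of cases, and CpG-poor members in 35.0%, 30.03%, 34.8% and 29.8%. The difference was 17.2 ± 2.17 percentage points, in 4 of 4 libraries (p = 0.125, exact sign-flip test). CpG-rich coding promoters were free more often still, at 64.4%, 58.2%, 66.9% and 57.6%, and members minus coding promoters came to -12.2 ± 1.50 percentage points, lower in 4 of 4 libraries (p = 0.125, exact sign-flip test). Among CpG-poor promoters the difference was -3.21 ± 0.632 percentage points, again with members lower in 4 of 4 libraries (p = 0.125, exact sign-flip test). The members were not lower at each CpG ratio. Below 0.2 they were free in 34.9%, 28.6%, 34.6% and 29.04% of cases, against 33.4%, 29.002%, 33.8% and 28.4% of coding promoters. From 0.2 to 0.4 the shares were 34.2%, 30.8%, 34.2% and 29.98% against 33.6%, 29.7%, 34.4% and 31.3%. From 0.4 to 0.6 members were lower in 4 of 4 libraries, with 37.2%, 30.8%, 36.4% and 30.975% against 43.8%, 40.6%, 43.7% and 39.95%. Differences by ratio were not tested. These comparisons within CpG classes were chosen after seeing the data.

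The state was also read over all 4 libraries together. Of the 14019 members, 1104 were free in all 4 libraries, a share of 7.88%, 4589 (32.7%) were held by a nucleosome in all 4, and 8326 (59.4%) changed state between libraries. Among CpG-rich members 336 (25.5%) were free in all 4, and among CpG-poor members 768 (6.05%). The corresponding share was 27.1% for protein-coding promoters and 6.21% for the sites 10 kb upstream. Members free in all 4 libraries had a median of 102, 166, 100 and 163 reads within 1 kb, somewhat fewer than all members, and members held in all 4 had 124, 197, 123 and 193. Outside the nucleosomes of the window itself the medians were 102, 166, 100 and 163 against 108, 173, 107 and 169. How far coverage contributes to a constant free state was not tested.

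The share of free windows followed the observed over expected CpG ratio in both gene classes. Below a ratio of 0.2, 246 of 5224 members (4.71%) were free in all 4 libraries, and of protein-coding promoters 4.89%. Between 0.4 and 0.6 the shares were 10.0% and 18.0%, between 0.6 and 0.8 they were 20.5% and 37.8%, and at 0.8 and over 32.5% of 459 members and 40.0% of coding promoters were free. Members lay near coding promoters at low CpG ratios and further below them from 0.4 on, as the plot by CpG content shows. These shares describe promoters, all measured in the same 4 libraries, and were not tested.

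**Figure D2:**
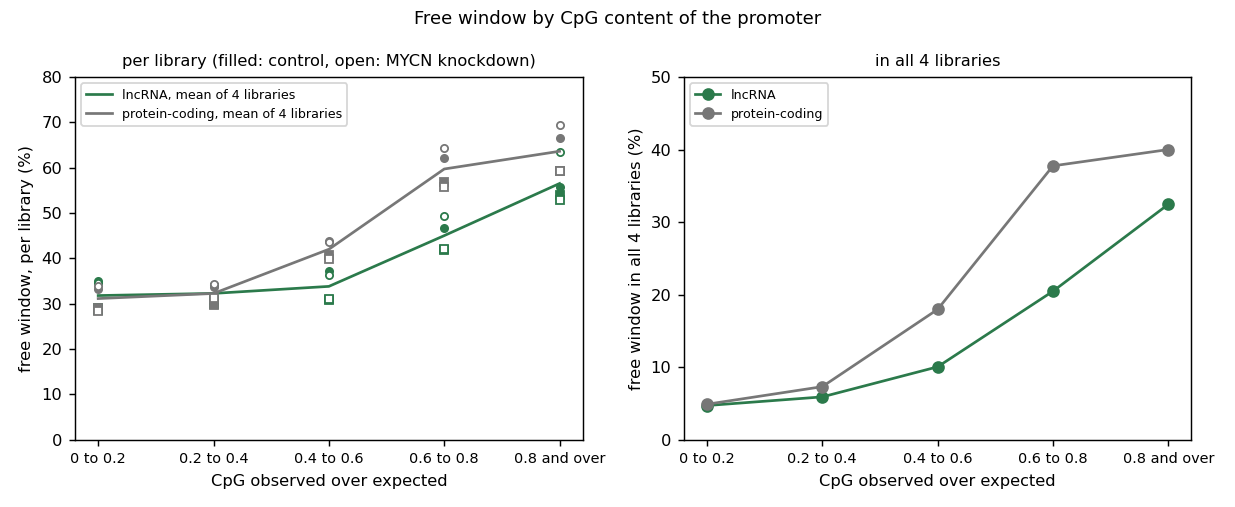
Share of promoters with a free window (%, vertical axes) against the observed over expected CpG ratio within 500 bp of the TSS, for lncRNA (green) and protein-coding (grey) promoters. Left, each library as a point and the mean as a line. Right, promoters free in all 4 libraries, from 4.71% to 32.5% for lncRNA and from 4.89% to 40.0% for coding promoters.

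The dyad profile within 1 kb gave the same order. Reads were divided by the reads of each promoter within 1 kb, averaged over promoters in 10-bp bins and smoothed over 5 bins, so that 1 is the promoter mean. Around lncRNA starts the profile rose to a single low peak of 1.20, 1.17, 1.20 and 1.18 at 95, 95, 75 and 95 bp downstream. Around protein-coding starts the +1 peak reached 1.79, 1.65, 1.71 and 1.66 at 135 bp in all 4 libraries. The lowest point upstream was between 0.940 and 0.972 for members and between 0.596 and 0.624 for coding promoters. Across the 2 kb around the sites 10 kb upstream of the members, the highest and lowest points differed by only 0.0826 to 0.125. Their lowest point upstream was between 0.956 and 0.967, inside the range of the members.

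**Figure D3:**
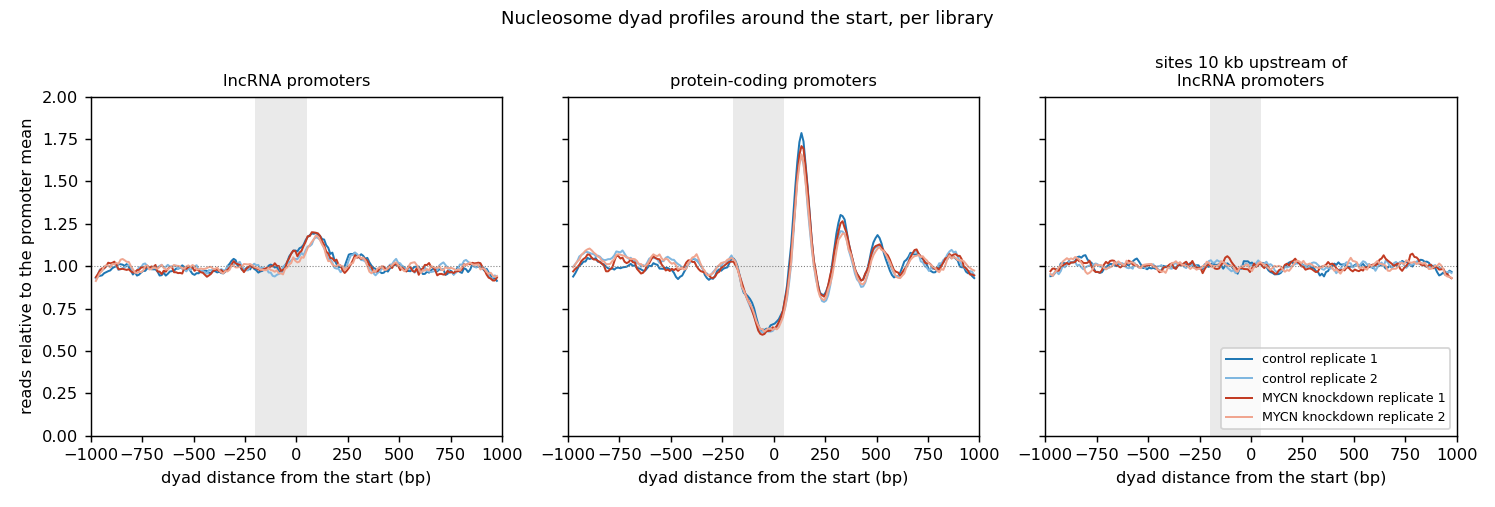
Dyad profiles of the 4 libraries (colours) around lncRNA starts, protein-coding starts and sites 10 kb upstream of lncRNA starts. The horizontal axis is the distance of dyads from the start in bp, the vertical axis the reads relative to the promoter mean, and grey marks the NFR window. The lncRNA profile has 1 low peak of 1.17 to 1.20. Its lowest upstream point is between 0.940 and 0.972, a range that includes the 0.956 to 0.967 of the upstream sites. The coding profile has a trough of 0.596 to 0.624 and a peak at 135 bp.

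Reads per bp in the NFR window relative to the flanks 500 to 1000 bp away were 1.05, 1.02, 1.05 and 1.01 at members, so that the average lncRNA promoter was not depleted of nucleosome reads. At protein-coding promoters the ratio was 0.754, 0.716, 0.725 and 0.718. The difference of 0.304 ± 0.0116 had the same sign in 4 of 4 libraries (p = 0.125, exact sign-flip test). CpG-rich members had ratios of 0.776, 0.716, 0.734 and 0.726, close to all coding promoters, while CpG-rich coding promoters had 0.572, 0.541, 0.536 and 0.548. CpG-poor promoters had ratios near 1 in both gene classes, with 1.08, 1.05, 1.08 and 1.04 at members and 1.02, 0.979, 1.01 and 0.972 at coding promoters. Among them the class difference shrank to 0.0700 ± 0.00404, in 4 of 4 libraries (p = 0.125, exact sign-flip test). MYCN knockdown minus control was -0.00772 for members (p = 0.667, exact permutation test), within the replicate spread.

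A +1 nucleosome, the first dyad from the TSS to 300 bp downstream, was called at between 92.8% and 97.1% of members. The range was 91.8% to 96.3% at protein-coding promoters and 89.0% to 96.1% at the sites 10 kb upstream. A dyad in this range therefore does not by itself mark a start. Its median position was 108, 107, 109 and 108 bp at members and 125, 125, 127 and 125 bp at protein-coding promoters, a difference of -17.5 ± 0.577 bp in 4 of 4 libraries (p = 0.125, exact sign-flip test). Positions were more spread at members. Between 22.98% and 23.8% of their +1 dyads lay 100 to 150 bp downstream, against 31.1% to 32.3% at coding promoters, and the middle 50% of members spanned 55 to 164 bp in control replicate 1 against 79 to 165 bp at coding promoters. For sites 10 kb upstream the medians were 113, 108, 114 and 110 bp. In CpG-rich members the median was 120, 121, 119 and 119 bp, between CpG-poor members (107, 106, 107 and 106 bp) and CpG-rich coding promoters (133, 132, 135 and 134 bp). CpG-poor coding promoters had medians of 107, 109, 109 and 107 bp, and the middle 50% spanned 58 to 159 bp in control replicate 1 against 54 to 164 bp at CpG-poor members. Within the CpG-poor class the difference was -1.50 ± 1.29 bp, in 3 of 4 libraries (p = 0.25, exact sign-flip test).

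The +1 nucleosome of lncRNA genes was less sharply placed. Fuzziness, the SD of read midpoints around the dyad, had a median of 35.2, 36.5, 35.2 and 36.3 bp at members and of 33.2, 35.0, 33.3 and 34.8 bp at coding promoters. Members were fuzzier by 1.73 ± 0.224 bp in 4 of 4 libraries (p = 0.125, exact sign-flip test). The medians over all autosomal nucleosomes were 35.2, 36.5, 35.2 and 36.5 bp, so the +1 nucleosomes of members were placed like an average nucleosome of their library. Within CpG-poor promoters the class difference shrank to 0.297 ± 0.0985 bp, and within CpG-rich promoters it was 1.63 ± 0.171 bp. Upon MYCN knockdown the median fuzziness of members differed by -0.0600 bp (p = 1, exact permutation test).

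Occupancy of the +1 nucleosome was close in both gene classes. Its median read count over the library median was 1.15, 1.16, 1.08 and 1.17 at members and 1.08, 1.11, 1.08 and 1.17 at coding promoters. The difference of 0.0324 ± 0.0387 was within the spread between libraries (p = 0.5, exact sign-flip test). As a mean of log2 read counts, a measure added after seeing the data, it was 0.0305 with the same sign in 4 of 4 libraries (p = 0.125, exact sign-flip test). Among CpG-poor promoters the sign turned, and members minus coding promoters was -0.0655 ± 0.0132 in 4 of 4 libraries (p = 0.125, exact sign-flip test). MYCN knockdown minus control was -0.0341 at members (p = 1, exact permutation test). At equal depth it was -0.0801, with both knockdown libraries under both controls (p = 0.333, exact permutation test, the smallest possible), and as a mean of log2 read counts it was -0.0192 (p = 0.667). Medians of whole counts move in steps of 1 read.

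The position of a member relative to coding genes went with its CpG content. Of members starting 5 to 10 kb from a coding TSS, 15.9% were CpG-rich and 9.43% were free in all 4 libraries. Both shares were lowest among the 3203 members over 200 kb away, with 4.31% CpG-rich and 5.90% free. A total of 4938 members started inside the body of a protein-coding gene. Outside coding genes 7.93% were free in all 4 libraries, inside a gene on the opposite strand 7.93%, and inside on the same strand 7.44%. Among CpG-poor members these shares were 6.01%, 5.90% and 6.72%. The 1932 single-exon members were free in all 4 in 8.80% of cases and the multi-exon members in 7.73%. Of the 893 members with another member start within 1 kb, 34.5% were CpG-rich and 16.1% were free in all 4 libraries. Such neighbours share their nucleosomes and are not independent.

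Free shares differed between the name classes of the members. Unnamed genes (10122 with reads) were free in all 4 libraries in 7.38% of cases, LINC genes in 6.98% and genes named as antisense in 8.77%. The 711 genes with other names had 15.3%, and 25.6% of them were CpG-rich. Hosts of small nucleolar RNAs stood highest, with 5 of 17 free in all 4 libraries and 14 of 17 CpG-rich. Hosts of microRNAs had 8 of 66 free, with 17 of 66 CpG-rich. Held in all 4 libraries were 5 of the 17 hosts of small nucleolar RNAs (29.4%) and 24 of the 66 microRNA hosts (36.4%). The share over all members was 32.7%. Within the CpG-rich class the share free in all 4 was 24.3% for LINC, 24.8% for antisense, 23.2% for unnamed and 36.3% for other names. It was 35.7% (5 of 14) for hosts of small nucleolar RNAs and 23.5% (4 of 17) for microRNA hosts.

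CACGTG did not go with one state. Of 685 members that held it, 77 (11.2%) were free in all 4 libraries and 256 (37.4%) were held in all 4, against 7.70% and 32.5% of members without it. Within CpG-poor members the free shares were 6.78% with and 6.01% without the motif, and within CpG-rich members 34.5% of 110 and 24.7%. A match of these letters does not show that MYCN binds there.

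The study asked whether MYCN knockdown removes or forms NFRs. Here a promoter showed NFR loss when it was free in both control libraries and held in both MYCN knockdown libraries, and NFR formation in the opposite case. NFR loss was seen at 434 of 2432 members free in both controls, a share of 17.8%, and the share over all promoters was 8.84%. NFR formation was seen at 433 of 2425 members free in both knockdown libraries, or 17.9%, where the share over all promoters was 9.64%. The member counts of loss and formation were thus nearly equal. Coding promoters had shares of 6.11% and 7.01%, and in both gene classes the shares were higher among CpG-poor promoters. CpG-poor members had 412 losses (20.7%) and 397 formations (20.5%), and CpG-rich members 22 (4.98%) and 36 (7.35%). CpG-poor coding promoters had 13.8% and 16.8%, and CpG-rich ones 3.91% and 4.20%. The difference between these shares was not tested.

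**Figure D4:**
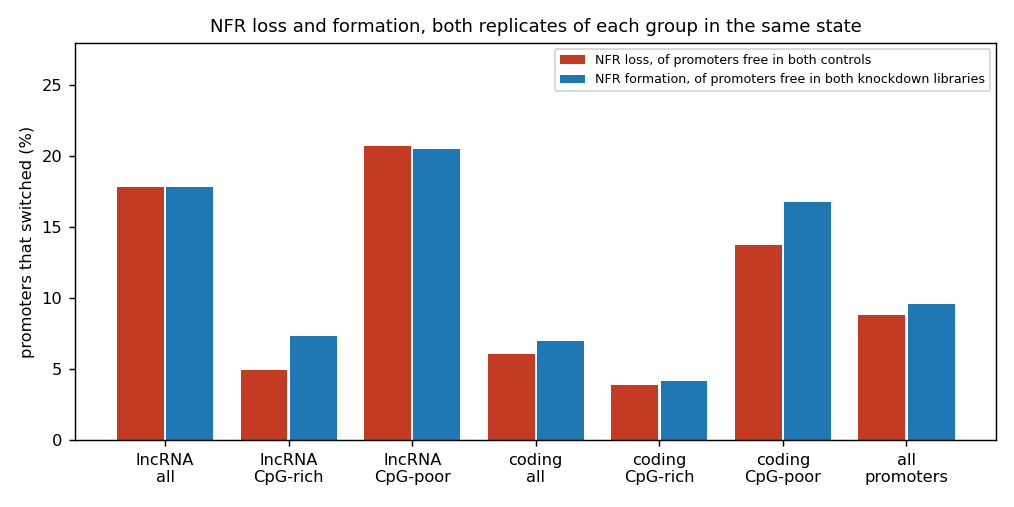
Share of promoters (%, vertical axis) with NFR loss, of those free in both controls (red), and with NFR formation, of those free in both MYCN knockdown libraries (blue), by gene class and CpG class. CpG-poor lncRNA promoters have the highest bars, 20.7% and 20.5%, and CpG-rich coding promoters the lowest.

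Replicates of a group disagreed at least as often as same-numbered libraries of different groups. The control libraries gave different states for 33.3% of members and the knockdown libraries for 33.4%, whereas control and knockdown differed for 32.6% between the replicate 1 libraries and 31.6% between the replicate 2 libraries. Replicates of a group also differed in depth, while same-numbered libraries had similar depth. The comparison was therefore not like for like, and the part due to depth was not tested. The windows with NFR loss held a median of 11 and 17 reads in the knockdown libraries, where the median autosomal nucleosome had 13 and 18. Those with NFR formation held 12 and 18 reads in the controls, against 13 and 19.

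For NFR loss, the 5 leading members were those with most reads in the window nucleosomes of the knockdown libraries. They were SRGAP2-AS1 (49 and 86 reads in knockdown replicates 1 and 2), ENSG00000261592 (45 and 34) and ENSG00000290673 (21 and 54). ENSG00000260671 (29 and 40) and ENSG00000231791 (33 and 34) followed. All 5 were CpG-poor. SRGAP2-AS1 lies beside a gene with near-identical copies on chromosome 1, and its promoter held 480, 873, 510 and 963 reads within 1 kb, over 4 times the member median, and its count is uncertain. For NFR formation the leading members were ENSG00000268764 (54 and 43 reads in the window of control replicates 1 and 2), LINC00955 (34 and 49), ENSG00000285631 (31 and 48), ENSG00000263235 (15 and 63) and ENSG00000230908 (30 and 44), and each was CpG-poor. At ENSG00000263235 the 2 controls were far apart in these reads, more than their depth.

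Reads over the 3 kb around the TSS, of which 2 kb lay upstream, were tested across 37455 promoters with edgeR's quasi-likelihood test and Benjamini-Hochberg adjustment. None of 14025 members passed an adjusted p of 0.05, and the share called over all promoters was 0%. DESeq2 called 0 members as well. At an unadjusted p under 0.05, edgeR had 482 members (3.44%) against 3.36% of all promoters. DESeq2 had 176 members (1.25%) against 1.14% of all promoters. The median log2 change of the members was 0.00 and the smallest adjusted p was 0.9997.

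The members with the smallest p are given as values. ENSG00000289040, inside a coding gene on chromosome 12, had 95, 180, 157 and 243 reads and a log2 change of 0.59 ± 0.16 (SE). CDH13-AS1, antisense to the cadherin gene CDH13, had 157, 242, 224 and 320 reads (log2 change 0.49 ± 0.14), and ENSG00000286944 had 146, 298, 224 and 375 (0.49 ± 0.14). In these 3 each knockdown library exceeded the control of the same number. On the other side, ENSG00000286008 had 326, 485, 227 and 332 reads (log2 change -0.50 ± 0.14), HCP5B in the major histocompatibility region 176, 267, 113 and 185 (-0.54 ± 0.15), and ENSG00000263709 144, 237, 91 and 163 (-0.55 ± 0.17). The adjusted p of all 6 was 0.9997 by edgeR. Their depth differs between replicates, so raw reads compare only within a replicate number.

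Of 10 lncRNA genes linked to neuroblastoma, 7 were members, and 4 of them were held in all 4 libraries. States of named genes, here and below, refer to the outermost annotated start, and other starts of these genes were not examined singly. MYCNUT, transcribed upstream of MYCN, had a window nucleosome of 14, 27, 22 and 24 reads. It starts at position 16060521 of chromosome 2, just outside the amplified stretch described below. MEG3, a maternally expressed growth-suppressing lncRNA, had 20, 26, 15 and 22 reads in its window, and CASC15 had 9, 14, 6 and 20, close to the minimum in the replicate 1 libraries. SNHG16, a host of small nucleolar RNAs first described in neuroblastoma, had 9, 9, 7 and 0 reads in its window and a gap between the dyads around its TSS of 293, 305, 330 and 413 bp. NBAT1, a lncRNA that restrains neuroblastoma growth, was free in both controls and held 8 and 12 reads in the knockdown libraries, which meets the definition of NFR loss with a thin nucleosome. Its gaps were 237, 189, 266 and 190 bp and did not separate the groups.

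LINC00839 was free in all 4 libraries, with gaps of 421, 474, 468 and 551 bp, and its promoter is the CpG-poor sequence with 10 CpG printed above. By edgeR 0 of the 7 passed, with 3 log2 changes above 0 and 4 below and a median of -0.04, beside 0.00 over all promoters.

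Among the abundant lncRNA genes 6 of 10 were members and 5 of the 6 were CpG-rich. DANCR had gaps of 556, 561, 553 and 570 bp, bounded by dyads 226 to 238 bp upstream and 323 to 335 bp downstream, and no +1 nucleosome within 300 bp in any library. MALAT1, a nuclear lncRNA of splicing speckles, was free in all 4 as well. NORAD, which binds PUMILIO proteins, was CpG-rich with a CACGTG at -80 but held in all 4 libraries with 8, 16, 14 and 14 reads. PVT1, downstream of MYC, was also CpG-rich and held in all 4, with 13, 11, 8 and 22 reads. CYTOR was CpG-poor and free in 3 of 4 libraries, at 42, 97, 47 and 102 reads within 1 kb, under the member median. No member of this list passed by edgeR, with 4 log2 changes above 0, 2 below and a median of 0.08.

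Imprinted lncRNA genes were members in 9 of 9 cases, with KCNQ1OT1 free in all 4 libraries and MEG3, MEG8, MEG9 and SNHG14 held in all 4. The window of MEG9 held 28, 49, 28 and 31 reads and that of MEG8 30, 30, 17 and 28. Compared within a replicate number, MEG8 had 17 reads upon knockdown against 30 in control, and 28 against 30. MEG9 had 28 against 28, and 31 against 49. GNAS-AS1, antisense at the GNAS imprinted locus, was free in both controls and held 13 and 8 reads in the knockdown libraries. Reads of both alleles are summed in these files. The list had 2 log2 changes above 0, 7 below and a median of -0.10, with 0 passing.

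Of 13 neural and developmental lncRNA genes, 4 were members. LINC00461, a brain-expressed lncRNA with a CpG-rich promoter, was free in all 4 libraries with gaps of 289, 287, 248 and 252 bp, narrower in both knockdown libraries. DLX6-AS1 was free in 3 libraries with 16 reads in control replicate 2. MIAT and RMST were each free in 1 library and held in 3, MIAT with 17, 29, 23 and 0 reads and RMST with 12, 0, 15 and 21. None passed by edgeR, and the log2 change of RMST, 0.38, was the highest of the 4.

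Hosts of small nucleolar RNAs included 5 members free in all 4 libraries, SNHG17, SNHG21, SNHG25, SNHG29 and SNHG30. As many, 5, were held in all 4. SNHG17 had gaps of 329, 350, 365 and 416 bp, wider in both knockdown libraries. Gaps of single genes were not tested between the groups. SNHG29, printed above, had gaps of 812, 631, 632 and 624 bp with 53, 86, 57 and 82 reads within 1 kb. SNHG7, with a CACGTG at -122, had gaps of 384, 382 and 396 bp in 3 libraries and of 196 bp in knockdown replicate 2, where a nucleosome of 14 reads was called in the window. SNHG11 was CpG-poor, with TATAAA at -27, and held 18, 27, 10 and 28 reads. Of the 17, 9 had log2 changes above 0 and 8 below, with a median of 0.00 and 0 passing. Of the 66 microRNA hosts 30 lay above 0 and 36 below, with a median of -0.02 and 0 passing. MIR205HG held 37, 39, 27 and 37 reads in its window, where the median member held in all 4 libraries had 15, 23, 15 and 23.

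**Figure D5:**
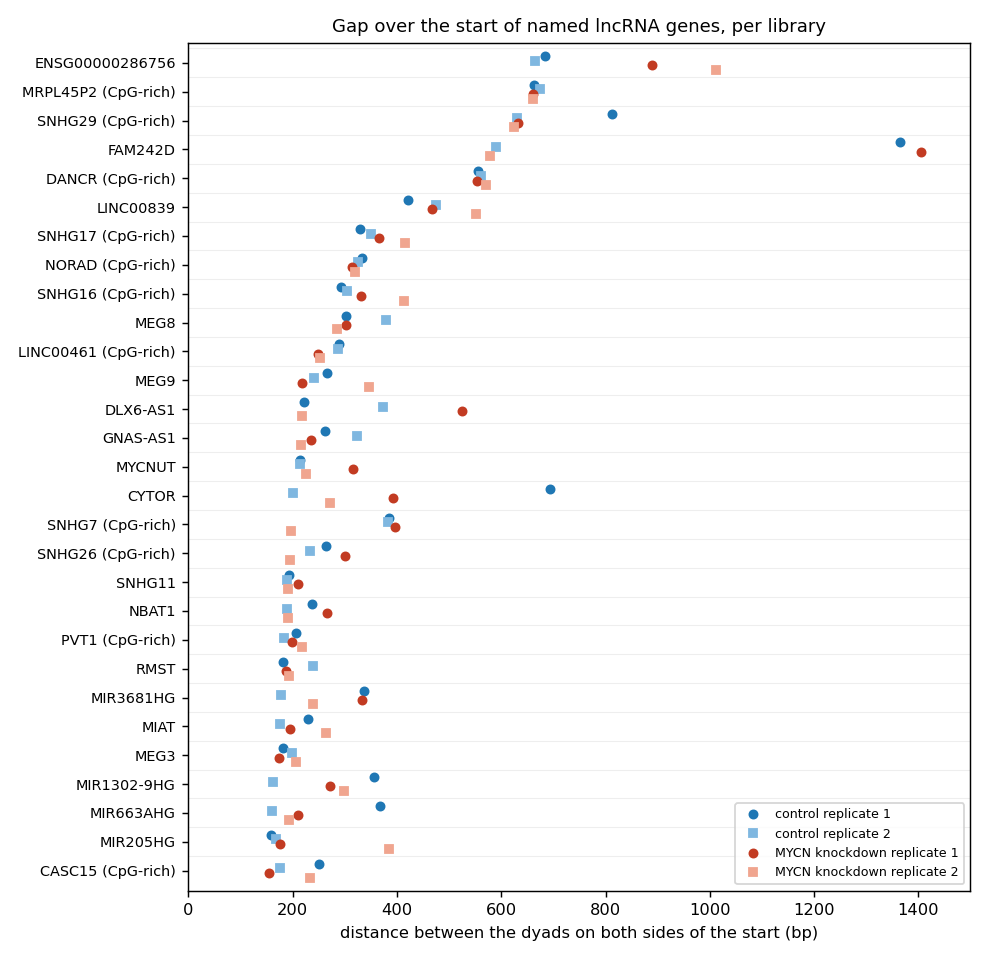
Distance in bp (horizontal axis) between the nearest dyads upstream and downstream of the TSS for members of the gene lists and for the 4 members with CACGTG and the widest gaps, outside the amplified part of chromosome 2. Points are the 4 libraries, and genes are ordered by their smallest gap. DANCR, LINC00839 and the 4 members with CACGTG stay above 400 bp in all 4 libraries.

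The 4 members with CACGTG, free in all 4 libraries and with the widest gaps, were ENSG00000286756, MRPL45P2, SNHG29 and FAM242D. MRPL45P2 had gaps of 662, 674, 661 and 661 bp, a +1 dyad at 151, 157, 152 and 146 bp and 63, 183, 87 and 174 reads within 1 kb. ENSG00000286756 on chromosome 11 had gaps of 683, 665, 890 and 1011 bp, wider in both knockdown libraries, with 36, 70, 24 and 45 reads within 1 kb, far under the member median. FAM242D had gaps of 1365, 590, 1406 and 578 bp with 43, 67, 52 and 78 reads, the wide values being those of the shallower replicate 1 libraries. MRPL45P2 is a pseudogene copy of a coding gene and FAM242D belongs to a gene family, so their counts are uncertain.

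A few members stood out by reads alone. Chromosome 2 carries a stretch from 16070001 to 16610000 in which 49 bins of 10 kb held over 10 times the median bin. The bounds are those of the first and last such bin, and not all bins between them passed. In the bins that passed lay 9 members. Their window nucleosomes, where called, held 1170 to 1753 reads against a highest count of 1764 in each of the 4 files, so differences there are compressed. GACAT3 in this stretch was held in all 4 libraries with 1615, 1714, 1582 and 1750 reads. None of the 9 was free in all 4 libraries, 6 were held in all 4, and 8 had log2 changes above 0 with a median of 0.08. Outside it, the highest +1 read counts were at ROCK1P1 on chromosome 18 (1660, 1747, 1613 and 1748) and at LINC01410 (264, 294, 233 and 346) and ENSG00000288838 (181, 113, 179 and 259), neighbours on chromosome 9. ROCK1P1 is a partial copy of the coding gene ROCK1, and its count is uncertain. Among members with at least 500 reads within 1 kb in all libraries, ranked by the smallest gap over libraries, the widest were 323 bp at ENSG00000232444 in the amplified stretch, 258 bp at ENSG00000287168, 256 bp at ENSG00000290523 and 238 bp at ENSG00000288838.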

How the data were processed

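MNase-seq was analysed in 4 libraries of BE(2)C cells, control and MYCN knockdown with 2 replicates each. Groups and replicate numbers came from the sample titles, and the study's methods call the replicates biological. According to the submitters' processing notes and the methods, reads were handled with CASAVA 1.9, Trim Galore 0.4.4 and Bowtie2 2.2.4 (hg19). The authors kept proper pairs of sufficient mapping quality, removed duplicates, took read-pair midpoints as dyads and called nucleosomes with Genetrack. Per the file headers and values, the authors' deposited values are raw read counts for each called nucleosome, all of 6 or more. The deposited fuzziness values, another column of the authors, are SDs in bp. The study pooled replicates, whereas each library was treated separately here.

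GRCh37 lengths held the last nucleosome of all 22 autosomes. The TSS was the 5′ end of the gene, also for named genes. Canonical transcript starts were used only as an alternative for the classes as a whole. Shares, medians and profiles were computed in Python 3 from the lists. Promoter reads were tested with edgeR 4.0.16 (R 4.3.3; TMM scaling, mean of at least 10 reads), and DESeq2 1.42.0 was an alternative. Scripts were tested on simulated data. Group means were compared by exact permutation tests and gene classes by exact sign-flip tests over libraries.

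The members and lists were chosen with earlier results of these data known. Named genes were the members of 6 lists (all linked to neuroblastoma, otherwise up to 4 with most reads within 1 kb), the leading members by NFR loss, NFR formation, edgeR p, +1 reads and gap, and the widest gaps with CACGTG. KCNQ1OT1, MALAT1, SNHG14, SNHG21, SNHG25 and SNHG30 were named after their states were seen. Alternatives covered the overlap, depth, TSS, member set, +1 range, scaling, filter, GC content, block and single libraries.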

Additional observations from a re-analysis of the deposited data

How the results depend on the processing

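Alternatives were run for 13 results and for the log2 changes of the single members with the smallest p. Of these 221 alternative values, 198 counted as unchanged. Differences had to keep their sign, whatever their p. NFR counts had to stay within a fixed ratio of the main count, and the number of members called had to stay equal. Single members had to keep their sign without passing the adjusted p threshold. The 198 include the many values of the single members. They also include the replicate block, which leaves the differences between group means unchanged by construction. The free share, +1 position, fuzziness and window ratio of members against coding promoters kept their direction under each alternative run, with differences in the free share from -21.7 (canonical transcript starts) to -3.21 (CpG-poor promoters only) percentage points and +1 positions from -38.0 bp (dyads counted from 50 bp upstream) to -1.50 bp (CpG-poor only). Left out in turn, single libraries gave -17.0 to -16.4 percentage points. The +1 reads of members minus coding promoters reversed to -0.0655 among CpG-poor promoters, a comparison added after seeing the data, and the cause was not tested.

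MYCN knockdown minus control in the free share of members reversed to -0.0535 percentage points when 50% of a nucleosome counted as inside and to -0.0892 at equal depth. Without single libraries it ranged from -2.61 to 2.68, fuzziness from -0.705 to 0.585 bp, +1 reads from -0.0789 to 0.0108 (at equal depth -0.0801) and the window ratio from -0.0255 to 0.0101. NFR loss and formation in members numbered 152 and 140 at 50% overlap, and without single libraries 800 to 1487 and 802 to 1498, since fewer libraries then have to agree. With the replicate block, counting same-numbered pairs and averaging over both, they were 2246.5 and 2251. The numbers are only shared numbers; deviations of same-numbered libraries correlated at 0.253 over members. Under the block edgeR called 0 members. At an unadjusted p under 0.05 it had 896 members (6.39%) against 6.19% of all promoters, and 482 members without the block.

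Each edgeR and DESeq2 setting called 0 members, and 1 promoter of another class was called without MYCN knockdown replicate 2. The share of members with log2 changes above 0 was 51.4%, and 46.0% with the GC correction. ENSG00000286944 reversed to -0.0709 when reads of the NFR window alone were tested, and ENSG00000263709 had too few reads there.

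Depth limits the window states, since a nucleosome of 6 reads and none differ by little in the replicate 1 libraries. Repeats and mappability were not examined.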
